A study of Homo sapiens with 8 samples.

Results

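The kinesin motor genes described here were the gene names of the count table that begin with KIF followed by a number and an optional letter A to C, or that read KIFC with a number from 1 to 3. There were 42 of them among 61209 gene names, and they were placed by textbook role in a mitotic class of 14, a transport class of 15 and a class of 13 with ciliary, regulatory or other roles. RNA was sequenced from cells of the human embryonic stem line H1 that carried a tdTomato reporter behind a P2A peptide at MSX1, a homeobox gene of limb progenitors. The cells were differentiated in culture, pelleted on day 4 at 25000 cells per well, and sorted on day 8 by the MSX1 reporter and by PDGFRA, a growth factor receptor of mesenchyme. The groups were FGF8+10 Pdgfra+, Mock Pdgfra+, FGF8+10 Pdgfralow and Mock Pdgfralow, with 2 libraries each and 8 in all. Every group was MSX1 reporter-positive, and FGF8+10 stands for FGF8 and FGF10 at 500 ng/mL each. What the Mock cultures received in place of the FGFs is not given in the sources used here. All libraries came from 1 cell line, and the titles call the replicates biological without saying whether they were separate differentiations, so p-values measure the spread between these samples.

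Kinesins are motor proteins that use ATP to move along or to take apart microtubules, and each gene encodes a motor with its own cargo or task. Mitotic kinesins build the spindle, align chromosomes and complete cytokinesis, and their RNAs are made mainly in G2 and M phase. Transport kinesins carry vesicles, mitochondria and ciliary cargo, and a further set works in cilia, in microtubule dynamics or as signalling scaffolds without motor activity. In limb bud mesenchyme, FGF8 from the overlying ectoderm and FGF10 from the mesenchyme sustain outgrowth, a process in which progenitor cells keep dividing.

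Total counts were 47698561 to 64390444 per library, and kinesin genes took 0.161% to 0.322% of them. PDGFRA averaged 714 ± 2.88 CPM (TMM-scaled CPM, counts scaled to a common library size; SD, n = 2) in FGF8+10 Pdgfra+ against 285 ± 9.27 CPM in FGF8+10 Pdgfralow, and 454 ± 1.87 CPM in Mock Pdgfra+ against 192 ± 3.64 CPM in Mock Pdgfralow, the order the gates name. MSX1 and the mesenchyme genes PRRX1, TWIST1, HAND2 and FOXF1 were present in every group, and TWIST2 was near 0. TBX5 averaged 2.74 to 3.71 CPM per group, and PRRX2 2.91 to 12.4 CPM. TBX4 averaged 33.1 CPM in FGF8+10 Pdgfra+ against 88.2 CPM in Mock Pdgfra+. In Pdgfralow cells it averaged 14.2 CPM with FGF8+10 against 86.2 CPM with Mock. The pluripotency factors POU5F1 and NANOG were near 0. Of the kinesin genes, 40 passed the filter on low counts: 13 mitotic, 15 transport and 12 others. KIF2B, a relative of the depolymerase KIF2C, had 0 counts in all 8 libraries, which allows up to 0.0883 to 0.134 CPM per library at a floor of 3 fragments, or 6 counts, and covers counting error only. KIF19, a regulator of motile cilium length in mice, had 0 to 12 counts per library and did not pass. KIF4B, a near-identical retrocopy of KIF4A, and KIF12 passed with very low counts and were called in none of the comparisons. Reads that map to both KIF4A and KIF4B were left out by the counting.

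Promoter sequences are shown because most mitotic kinesins rose together with FGF8+10. Genes of G2 and M phase are known to share a promoter layout: a CHR element, bound by the DREAM and MuvB complexes, next to CCAAT boxes, bound by NF-Y. Sequences came from RefSeq (GRCh38.p14), 250 bases before to 50 after each start site, for 34 of the 42 kinesin genes. The CHR core TTTGAA, on either strand, was in the window of 10 of 14 mitotic genes (71.4%), 1 of 11 transport genes (9.09%) and 0 of 9 others, against 18.2% of all 27305 genes with a window. CCAAT, on either strand, was in 11 of 14 mitotic genes (78.6%), 4 of 11 transport genes (36.4%) and 3 of 9 others (33.3%), against 39.7% of all genes. Both together were in 9 of 14 mitotic genes (64.3%) against 8.37% of all genes. The mitotic genes with these strings include KIF4B, the retrocopy of KIF4A, which was called in no comparison. The 14 also include KIF2B, which had no counts and held none of the strings. Of the E2F-type strings, TTCCCGC was in 0 of 14 mitotic windows, 2 of 11 transport windows (18.2%) and 1 of 9 others (11.1%), against 7.82% of all genes. TTGGCGC was in 3 of 14 mitotic windows (21.4%), 1 of 11 transport windows (9.09%) and 1 of 9 others (11.1%), against 3.66% of all genes. TTGGCGC and CCAAT on the opposite strand share the letters TTGG and can overlap. These are matches of letters in a window, with no test and no measurement of binding.

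The stretches below cover the 100 bases before the RefSeq start site, 5′ to 3′ on the gene's own strand, with TTTGAA (or its complement TTCAAA) and CCAAT (or its complement ATTGG) in capitals. They are shown because KIF11, KIF4A and KIF18A hold both strings close to the start, KIF20A and KIFC1 hold 2 copies of CCAAT, and KIF5B and KIF26A are the most abundant genes of the transport class and of the remaining class. They lie at chr10:92593030-92593129 (plus strand), chrX:70290004-70290103 (plus), chr11:28108157-28108256 (minus), chr5:138179012-138179111 (plus), chr6:33391723-33391822 (plus), chr10:32056426-32056525 (minus) and chr14:104138487-104138586 (plus). Of these, 9 bases of the KIF18A stretch lie in an exon of METTL15 in the counting annotation and the others overlap no exon there. The KIF11, KIF20A and KIF26A stretches lie within the gene span because another transcript starts upstream.
KIF11: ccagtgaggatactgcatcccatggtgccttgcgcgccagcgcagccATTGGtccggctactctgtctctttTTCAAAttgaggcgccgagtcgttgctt
KIF4A: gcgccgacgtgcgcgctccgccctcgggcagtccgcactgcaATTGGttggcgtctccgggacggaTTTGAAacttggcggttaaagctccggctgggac
KIF18A: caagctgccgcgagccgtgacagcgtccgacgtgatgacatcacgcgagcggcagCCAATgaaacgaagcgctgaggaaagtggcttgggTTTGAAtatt
KIF20A: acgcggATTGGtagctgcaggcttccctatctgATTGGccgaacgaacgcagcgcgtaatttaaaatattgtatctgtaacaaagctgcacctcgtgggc
KIFC1: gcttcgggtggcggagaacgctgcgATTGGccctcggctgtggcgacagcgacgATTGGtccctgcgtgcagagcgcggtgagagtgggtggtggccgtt
KIF5B: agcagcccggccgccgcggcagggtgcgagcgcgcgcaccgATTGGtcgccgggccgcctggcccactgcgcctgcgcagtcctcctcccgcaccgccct
KIF26A: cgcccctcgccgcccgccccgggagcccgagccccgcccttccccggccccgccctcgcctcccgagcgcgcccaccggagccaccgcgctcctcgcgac
In KIF11 the CHR core began 28 bases before the start site and the CCAAT box 53 bases before it, and in KIF4A the distances were 34 and 58 bases. KIFC1 and KIF14 carried the CHR core just past the start site, outside the bases shown. The KIF5B window held TTTGAA 140 bases upstream, and KIF26A held none of these strings.

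The first question was whether FGF8 and FGF10 moved mitotic and transport kinesins alike. With FGF8+10, 12 of 13 mitotic kinesins tested rose in Pdgfra+ cells and the same number rose in Pdgfralow cells, and none fell in either. The median log2 fold change of the class was 0.98 in Pdgfra+ cells and 1.40 in Pdgfralow cells, beside -0.01 and -0.02 over all genes tested. Among transport kinesins 8 of 15 rose and 3 fell in Pdgfra+ cells, with a median of 0.22, and 6 rose and 3 fell in Pdgfralow cells, with a median of 0.08. Of the other kinesins, 8 of 12 rose and 1 fell in Pdgfra+ cells, and 6 rose and 1 fell in Pdgfralow cells. Over all 40 this made 28 higher and 4 lower in Pdgfra+ cells, where 25.8% of all 22554 genes tested were called higher, 25.1% lower and 50.9% in either direction. In Pdgfralow cells it made 24 higher and 4 lower, where 27.9% of all genes were called higher, 27.7% lower and 55.7% in either direction. Calls are at an adjusted p under 0.05 in edgeR's quasi-likelihood test with Benjamini-Hochberg adjustment over all genes.

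Scaling by library totals in place of TMM, the trimmed mean of M-values, moved the median gene to 0.16 in Pdgfra+ cells and 0.15 in Pdgfralow cells. The split of all called genes was then 8164 higher to 3991 lower (67.2% higher), against 5811 to 5658 (50.7%), in Pdgfra+ cells. In Pdgfralow cells it was 8113 to 4672 (63.5%) against 6302 to 6256 (50.2%). The kinesin counts became 30 higher and 3 lower in Pdgfra+ cells and 26 and 4 in Pdgfralow cells, and no kinesin called under TMM changed sign under any scaling tried.

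**Figure D1:**
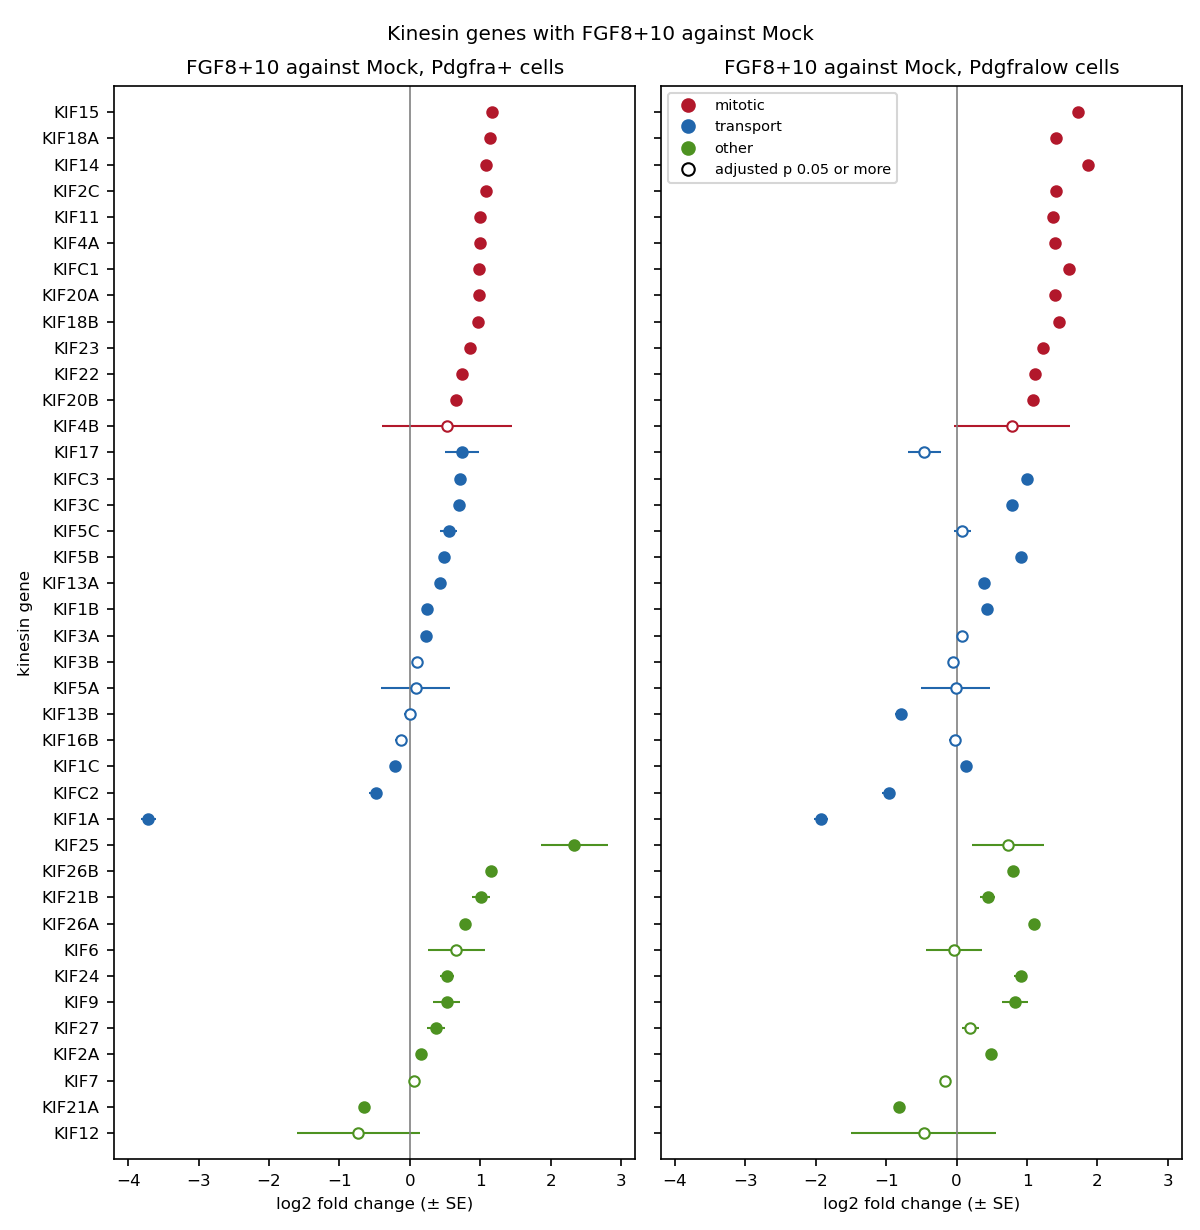
Log2 fold change of FGF8+10 over Mock with its standard error for the 40 kinesin genes tested, in Pdgfra+ cells (left) and Pdgfralow cells (right), coloured by class, with open points for an adjusted p of 0.05 or more. The mitotic points other than KIF4B all lie above 0.6, while transport points run from -3.71 (KIF1A) to 0.74 (KIF17) in Pdgfra+ cells.

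Per length, the summed level of the mitotic class was 159 and 159.6 FPKM (here TMM-scaled CPM per kilobase of the table's gene length) in the FGF8+10 Pdgfra+ libraries, against 81.4 and 81.8 FPKM in the Mock Pdgfra+ libraries. In Pdgfralow cells the mitotic sum was 229.7 and 232 FPKM with FGF8+10 and 87.1 and 87.4 FPKM with Mock. The transport sum was 122 and 119 FPKM in FGF8+10 Pdgfra+ libraries against 96.9 and 97.4 FPKM in Mock Pdgfra+ libraries. In Pdgfralow cells, FGF8+10 libraries had 157 and 159 FPKM and Mock libraries 103 and 105 FPKM of transport kinesins. In FPKM the mitotic sum lay above the transport sum in all FGF8+10 libraries and below it in all Mock libraries, but this order depended on the scale and on KIF5B. Summed in CPM, mitotic kinesins lay below transport kinesins in all 8 libraries, for example at 775.1 against 908.7 CPM and 778.4 against 888.6 CPM in FGF8+10 Pdgfra+. Without KIF5B, a sum per library added after the data were seen, the mitotic FPKM lay above the transport FPKM in all 8 libraries, with ratios of 2.98 and 3.07 in FGF8+10 Pdgfra+ and 4.16 and 4.20 in FGF8+10 Pdgfralow, against 1.71 and 1.67 in Mock Pdgfra+ and 1.77 and 1.76 in Mock Pdgfralow. The ratio of mitotic to transport FPKM was 1.30 and 1.34 in FGF8+10 Pdgfra+ and 1.47 and 1.46 in FGF8+10 Pdgfralow, against 0.840 and 0.840 in Mock Pdgfra+ and 0.845 and 0.836 in Mock Pdgfralow. As log2 ratios of FGF8+10 to Mock, the mitotic sum moved by 0.96 in Pdgfra+ cells and 1.41 in Pdgfralow cells, and the transport sum by 0.31 and 0.60. KIF5B alone made up 49.8% to 65.2% of transport FPKM, and without it the transport log2 ratio was 0.12 in Pdgfra+ cells and 0.16 in Pdgfralow cells. These sums carry no test.

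**Figure D2:**
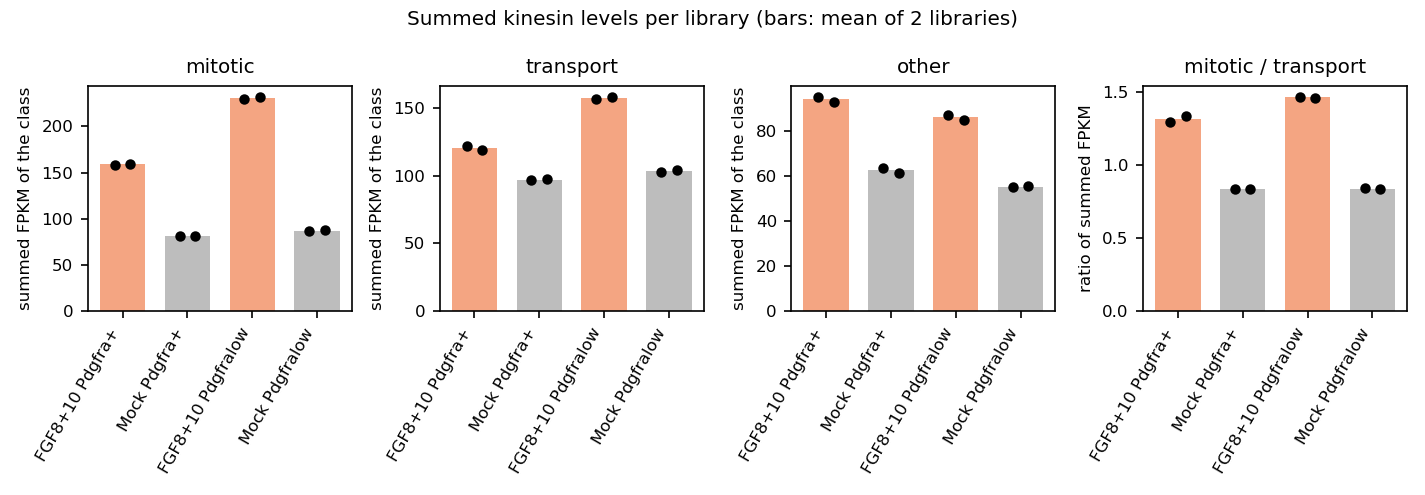
Summed FPKM of mitotic, transport and other kinesins, and the ratio of the mitotic to the transport sum, in each library (points) with the mean of the 2 libraries of a group (bars, from 0). FGF8+10 bars (orange) exceed their Mock bars (grey) in every panel, by the widest margin for mitotic kinesins in Pdgfralow cells.

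Among the mitotic kinesins, the motors that set up the spindle were all higher with FGF8+10. KIF11, the tetrameric motor that pushes spindle poles apart, had 128 and 128 CPM in FGF8+10 Pdgfra+ against 63.9 and 64.5 CPM in Mock Pdgfra+, and 165 and 158 CPM in FGF8+10 Pdgfralow against 61.5 and 62.9 CPM in Mock Pdgfralow. The FGF8+10 libraries lay above the Mock libraries in both populations, and within FGF8+10 the Pdgfralow pair lay above the Pdgfra+ pair. Its log2 fold change was 1.00 ± 0.04 (SE, adjusted p = 3.31e-27) in Pdgfra+ cells and 1.37 ± 0.04 (adjusted p = 4.07e-33) in Pdgfralow cells. KIF15, which backs up KIF11 in keeping the spindle bipolar, had 57.4 and 55.6 CPM in FGF8+10 Pdgfra+ against 26.2 and 24.5 CPM in Mock Pdgfra+, and 90.4 and 92.9 CPM in FGF8+10 Pdgfralow against 28.5 and 26.8 CPM in Mock Pdgfralow. Its Mock libraries lay below all FGF8+10 libraries. KIF15 had the largest fold change of the class in Pdgfra+ cells, 1.16 ± 0.05 (adjusted p = 2.74e-23), and 1.73 ± 0.05 (adjusted p = 6.76e-31) in Pdgfralow cells. KIFC1, a minus-end-directed motor that bundles spindle microtubules, had 64.9 and 64.8 CPM in FGF8+10 Pdgfra+ against 31.8 and 33.8 CPM in Mock Pdgfra+, and 82.5 and 86.2 CPM in FGF8+10 Pdgfralow against 29.2 and 26.8 CPM in Mock Pdgfralow. Treated and Mock libraries again did not overlap, with log2 fold changes of 0.98 ± 0.05 and 1.59 ± 0.05 (adjusted p = 3.44e-21 and 1.83e-29). Of the exon bases of KIFC1, 14% are shared with a pseudogene on the opposite strand, and the counting did not use strand.

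Motors that act on chromosomes and kinetochores were likewise higher with FGF8+10. KIF2C, a depolymerase that corrects faulty kinetochore attachments, had 54.4 and 53.8 CPM in FGF8+10 Pdgfra+ against 25.9 and 25.6 CPM in Mock Pdgfra+, and 75.1 and 75.9 CPM in FGF8+10 Pdgfralow against 26.0 and 30.6 CPM in Mock Pdgfralow. Its log2 fold changes were 1.07 ± 0.06 in Pdgfra+ cells (adjusted p = 1.36e-20) and 1.42 ± 0.06 in Pdgfralow cells (adjusted p = 6.5e-26). KIF18A, which dampens chromosome movements at the metaphase plate, had 31.1 and 32.1 CPM in FGF8+10 Pdgfra+ against 14.02 and 14.8 CPM in Mock Pdgfra+, and 42.4 and 44.0 CPM in FGF8+10 Pdgfralow against 17.1 and 15.4 CPM in Mock Pdgfralow. No FGF8+10 library of either gene came down to the Mock range, and KIF18A moved by 1.13 ± 0.07 and 1.41 ± 0.07 (adjusted p = 3.25e-18 and 1.65e-22). The chromokinesins KIF4A and KIF22, which push on chromosome arms, rose by 0.99 and 0.73 in Pdgfra+ cells and by 1.40 and 1.11 in Pdgfralow cells. KIF18B, which limits the length of astral microtubules, rose by 0.96 and 1.45.

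The cytokinesis motors gave the largest and the smallest changes among the called members of the class in Pdgfralow cells. KIF14, which localises citron kinase at the cleavage furrow, had 46.6 and 46.0 CPM in FGF8+10 Pdgfra+ against 21.7 and 22.2 CPM in Mock Pdgfra+, and 65.8 and 69.1 CPM in FGF8+10 Pdgfralow against 18.5 and 18.7 CPM in Mock Pdgfralow. It was highest in FGF8+10 Pdgfralow and lowest in Mock Pdgfralow. The fold changes were 1.08 ± 0.06 (adjusted p = 9.07e-21) in Pdgfra+ cells and 1.86 ± 0.06 (adjusted p = 3.58e-30) in Pdgfralow cells. KIF20A, which brings the chromosomal passenger complex to the central spindle, had 89.3 and 90.9 CPM in FGF8+10 Pdgfra+ against 46.8 and 44.9 CPM in Mock Pdgfra+, and 153 and 153 CPM in FGF8+10 Pdgfralow against 57.1 and 59.4 CPM in Mock Pdgfralow. Its groups did not overlap, and it moved by 0.98 ± 0.04 and 1.40 ± 0.04 (adjusted p = 3.69e-25 and 2.64e-32). KIF23, the motor subunit of centralspindlin, had 68.2 and 65.7 CPM in FGF8+10 Pdgfra+ against 37.1 and 37.0 CPM in Mock Pdgfra+, and 96.9 and 91.3 CPM in FGF8+10 Pdgfralow against 42.3 and 37.7 CPM in Mock Pdgfralow. The Mock libraries of both populations lay together and below every FGF8+10 library, with fold changes of 0.85 ± 0.05 and 1.23 ± 0.05 (adjusted p = 2.85e-19 and 6.28e-26). KIF20B, which takes part in abscission, rose least of the called members, by 0.65 in Pdgfra+ cells and 1.08 in Pdgfralow cells.

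Genes outside the name rule that work with the mitotic kinesins mostly rose too. They include CENPE, itself a kinesin motor, which rose by 0.91 in Pdgfra+ cells and 1.52 in Pdgfralow cells. Of 20 partner genes, 17 rose and 1 fell in Pdgfra+ cells (median 0.84) and 18 rose and 1 fell in Pdgfralow cells (median 1.29). Among all genes tested, 25.8% rose and 25.1% fell in Pdgfra+ cells, and 27.9% rose and 27.7% fell in Pdgfralow cells. PRC1 and NUSAP1, not called in Pdgfra+ cells, had low counted levels, with group means of 0.412 to 1.00 CPM and 0.321 to 0.667 CPM. Reads overlapping more than 1 gene were left out of the counts. Whether such losses lowered the values of PRC1 and NUSAP1 was not tested. The microtubule-end protein MAPRE1 fell in Pdgfra+ cells (-0.13) and the spindle pole protein NUMA1 in Pdgfralow cells (-0.07), both named after their values were seen. Both values are small beside the choice of scaling. Library totals put the median gene at 0.16 in Pdgfra+ cells and 0.15 in Pdgfralow cells. The largest in Pdgfra+ cells, with their Pdgfralow values after them, were the checkpoint kinase BUB1 (1.49 and 2.01), the RhoA activator ECT2 (1.04 and 1.60), the mitotic kinase CDK1 (1.01 and 1.41) and its cyclin CCNB1 (0.97 and 1.54). Of 15 genes of the G1/S transition and DNA replication, 14 rose in each population and none fell, with PCNA, the sliding clamp of replication, at 1.19 and 1.37. CCNE1, cyclin E1, was the one G1/S gene not called, at -0.11 (adjusted p = 0.29) and 0.01, and is named because it was the exception. Of 14 regulators of the mitotic programme, 10 rose and 1 fell in Pdgfra+ cells and 12 rose in Pdgfralow cells, where none fell. E2F7, a repressor that closes the E2F programme, moved by 1.11 and 1.62, and FOXM1, an activator of G2/M genes, by 0.73 and 1.31. In bulk RNA, a change in the number of cells in cycle and a change in RNA per cell cannot be told apart.

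Markers of cell types also moved with treatment. Of 8 limb and lateral plate mesenchyme genes 7 were tested: 4 rose and 2 fell in Pdgfra+ cells. In Pdgfralow cells 1 rose and 5 fell. Of all genes, 50.9% were called in either direction in Pdgfra+ cells and 55.7% in Pdgfralow cells. Of 7 endothelial markers 5 rose and 1 fell in Pdgfra+ cells, and 7 rose in Pdgfralow cells. Their summed level was 2130 to 2140 CPM in FGF8+10 Pdgfra+ and 2560 CPM in FGF8+10 Pdgfralow, against 1330 to 1340 CPM in Mock Pdgfra+ and 1360 to 1370 CPM in Mock Pdgfralow. Most of it was KDR and TEK, while PECAM1 averaged 18.5 ± 1.33 CPM and CDH5 19.8 ± 0.581 CPM in FGF8+10 Pdgfralow and 0.68 to 2.60 CPM in the other groups. Of 6 cardiac muscle markers 5 were tested, and 3 fell in Pdgfra+ cells and 4 in Pdgfralow cells. The list summed to 47.8 to 48.9 CPM in FGF8+10 Pdgfra+ and 36.1 to 37.7 CPM in FGF8+10 Pdgfralow, against 125 to 133 CPM in Mock Pdgfra+ and 101 to 104 CPM in Mock Pdgfralow. TNNT2, cardiac troponin T, fell to 0.738 ± 0.101 CPM in FGF8+10 Pdgfra+ against 62.0 ± 5.21 CPM in Mock Pdgfra+. Of 6 pluripotency markers 4 were tested: 1 rose and 1 fell in Pdgfra+ cells, and 2 rose and 1 fell in Pdgfralow cells. Their sum, mostly LIN28A, was 186 to 194 CPM in FGF8+10 Pdgfra+ and 262 to 263 CPM in FGF8+10 Pdgfralow, against 81.5 to 84.7 CPM in Mock Pdgfra+ and 79.4 to 80.6 CPM in Mock Pdgfralow. The part of these cells in the kinesin values was not tested.

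**Figure D3:**
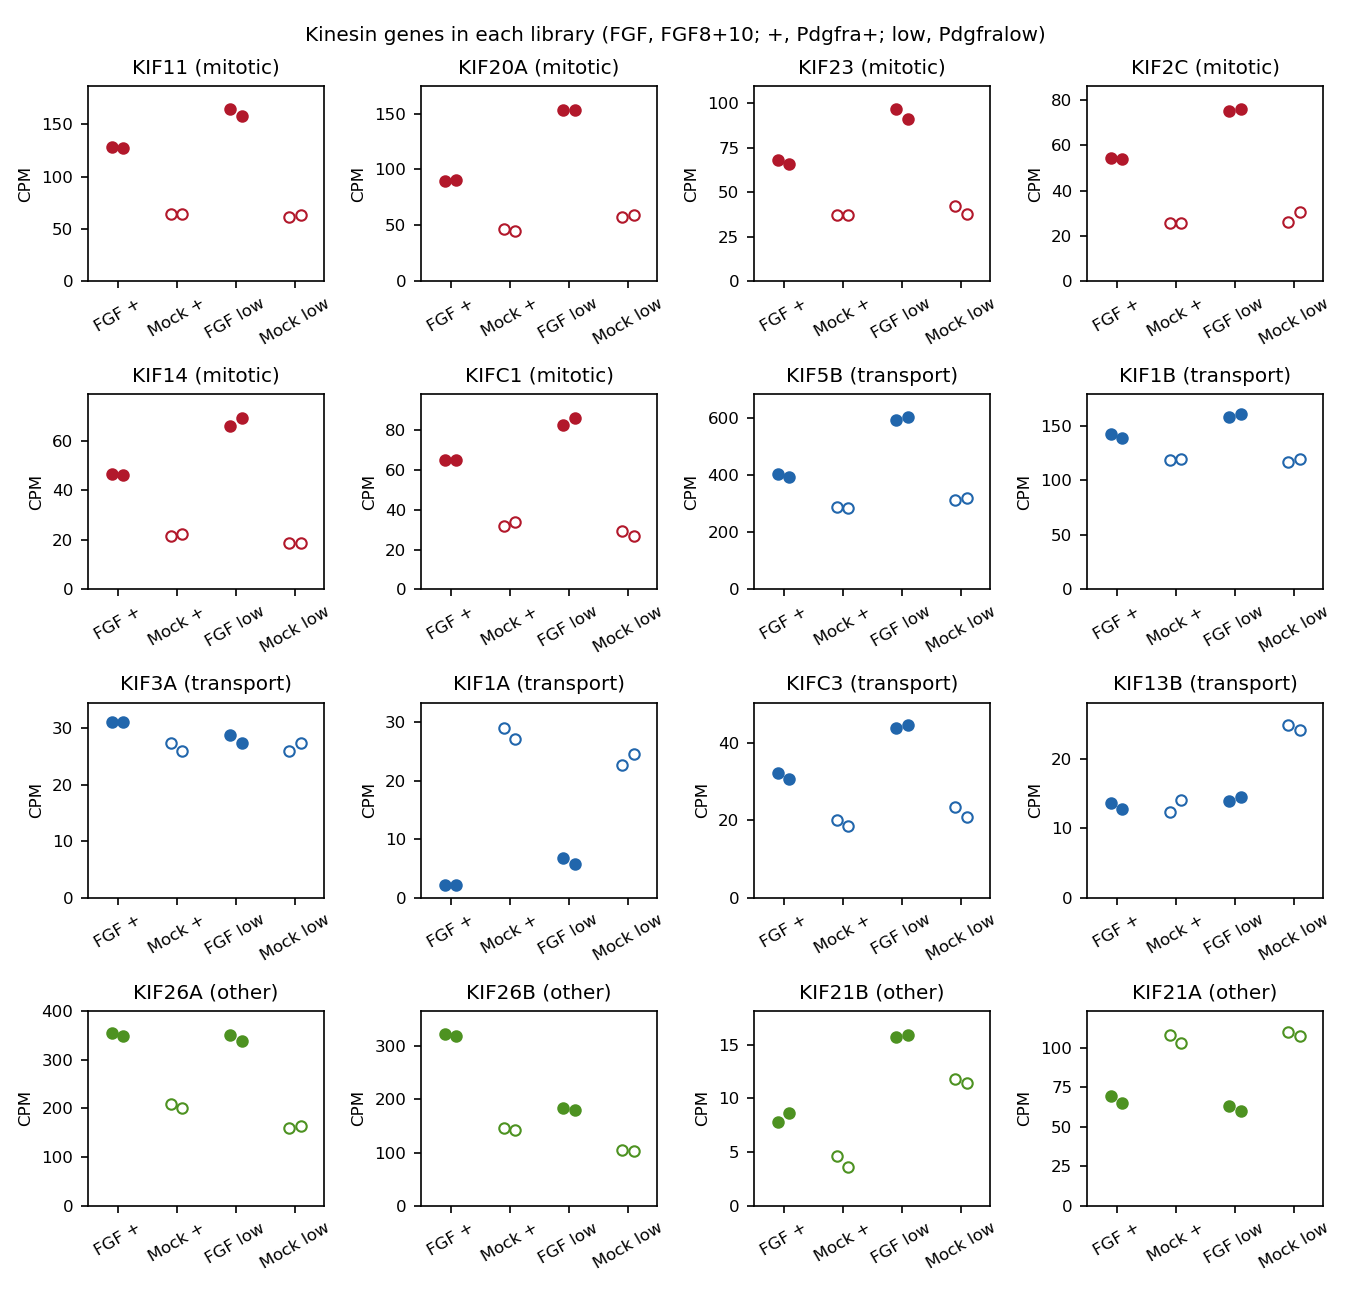
TMM-scaled CPM of 16 kinesin genes in each library, 2 points per group, filled for FGF8+10 and open for Mock, with each axis starting at 0. Mitotic genes (red) and KIF26A and KIF26B (green) are higher with FGF8+10 in both populations, whereas KIF1A (blue) and KIF21A (green) are lower.

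The transport class held genes that rose, genes that fell and genes with no call. KIF5B, the ubiquitous heavy chain of conventional kinesin, had the highest FPKM of any kinesin in all 4 groups: 68.1 ± 1.02 in FGF8+10 Pdgfra+ against 48.9 ± 0.480 in Mock Pdgfra+, and 102 ± 1.38 in FGF8+10 Pdgfralow against 54.3 ± 0.830 in Mock Pdgfralow (SD, n = 2 each). Its libraries had 404 and 395 CPM in FGF8+10 Pdgfra+ against 289 and 285 CPM in Mock Pdgfra+, and 595 and 606 CPM in FGF8+10 Pdgfralow against 315 and 322 CPM in Mock Pdgfralow. FGF8+10 Pdgfralow stood well above the other groups, which did not overlap either. The log2 fold change was 0.48 ± 0.02 (adjusted p = 2.83e-22) in Pdgfra+ cells and 0.91 ± 0.02 (adjusted p = 1.72e-33) in Pdgfralow cells. The brain-enriched relatives stayed low: KIF5A was below 0.6 CPM in every library, and KIF5C, at 6.77 to 12.3 CPM, rose by 0.55 in Pdgfra+ cells (adjusted p = 0.000181) and was not called in Pdgfralow cells (0.08). KIF1B, a carrier of mitochondria and synaptic vesicle precursors, had 142 and 139 CPM in FGF8+10 Pdgfra+ against 119 and 119 CPM in Mock Pdgfra+, and 158 and 161 CPM in FGF8+10 Pdgfralow against 117 and 119.8 CPM in Mock Pdgfralow. The FGF8+10 libraries of KIF1B did not overlap the Mock libraries of their population, with small differences of 0.24 ± 0.03 and 0.43 ± 0.03 (adjusted p = 1.29e-08 and 2.65e-16).

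Kinesin-2 subunits, which drive anterograde transport in cilia, gave mixed results. KIF3A had 31.1 and 31.1 CPM in FGF8+10 Pdgfra+ against 27.4 and 25.9 CPM in Mock Pdgfra+, and 28.7 and 27.4 CPM in FGF8+10 Pdgfralow against 25.9 and 27.4 CPM in Mock Pdgfralow. Only the FGF8+10 Pdgfra+ pair stood apart, at 0.22 ± 0.07 (adjusted p = 0.0038), and Pdgfralow cells gave 0.08 ± 0.07 (adjusted p = 0.34). Without Mock Pdgfra+ replicate 2 the KIF3A value was 0.19 with an adjusted p of 0.0545. Its partner KIF3B was not called in either population (0.10 and -0.05), whereas KIF3C, the alternative partner, rose by 0.69 and 0.79. KIF17, a homodimeric kinesin-2, had 2.93 and 2.81 CPM in FGF8+10 Pdgfra+ against 1.68 and 1.76 CPM in Mock Pdgfra+, and 1.32 and 1.88 CPM in FGF8+10 Pdgfralow against 2.14 and 2.27 CPM in Mock Pdgfralow. The FGF8+10 pair lay above Mock in Pdgfra+ cells and below it in Pdgfralow cells. KIF17 rose in Pdgfra+ cells at 0.74 ± 0.24 (adjusted p = 0.008) and was at -0.46 ± 0.24 (adjusted p = 0.104) in Pdgfralow cells. Of 24 intraflagellar transport genes, 22 were in the table and tested. In Pdgfra+ cells 10 rose and 4 fell, where 25.8% of all genes rose and 25.1% fell. In Pdgfralow cells 9 rose and 8 fell, where 27.9% of all genes rose and 27.7% fell.

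KIF1A, the carrier of synaptic vesicle precursors in neurons, had the largest change of all called kinesins in either population. Its libraries had 2.19 and 2.09 CPM in FGF8+10 Pdgfra+ against 29.0 and 27.1 CPM in Mock Pdgfra+, and 6.77 and 5.71 CPM in FGF8+10 Pdgfralow against 22.6 and 24.5 CPM in Mock Pdgfralow. Every FGF8+10 library lay below every Mock library. The log2 fold change was -3.71 ± 0.11 (adjusted p = 1.98e-30) in Pdgfra+ cells and -1.92 ± 0.10 (adjusted p = 1.04e-21) in Pdgfralow cells. The neuronal marker STMN2 also fell with FGF8+10, to 1.78 ± 0.0238 CPM in FGF8+10 Pdgfra+ against 9.87 ± 0.684 CPM in Mock Pdgfra+, and to 6.396 ± 0.14 CPM in FGF8+10 Pdgfralow against 129 ± 0.149 CPM in Mock Pdgfralow. Of 12 neuronal markers 10 were tested: 5 rose and 2 fell in Pdgfra+ cells, and 6 rose and 2 fell in Pdgfralow cells. Of all genes, 50.9% and 55.7% were called in either direction. ELAVL3 had 0 counts in 6 libraries and ELAVL4 in 7. The marker sum was 49 to 52.1 CPM in FGF8+10 Pdgfra+ and 45.5 to 46.7 CPM in FGF8+10 Pdgfralow, against 38.6 to 40.9 CPM in Mock Pdgfra+ and 158 to 159 CPM in Mock Pdgfralow. STMN2 made up most of the sum in Mock Pdgfralow. Left out after the data were seen, it leaves 11 markers that summed to 47.2 and 50.3 CPM in FGF8+10 Pdgfra+ and 40.4 and 39.0 CPM in FGF8+10 Pdgfralow, against 29.2 and 30.6 CPM in Mock Pdgfra+ and 29.1 and 29.9 CPM in Mock Pdgfralow. The part of neurons in the KIF1A values was not tested.

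KIFC2, KIF13B and KIFC3 each gave another pattern. KIFC2, a minus-end-directed motor described in mouse neurons, had 13.3 and 12.1 CPM in FGF8+10 Pdgfra+ against 17.0 and 18.6 CPM in Mock Pdgfra+, and 8.62 and 8.57 CPM in FGF8+10 Pdgfralow against 17.0 and 16.5 CPM in Mock Pdgfralow. It fell in both populations, at -0.49 ± 0.09 and -0.97 ± 0.10 (adjusted p = 1.45e-05 and 3.89e-12), but 17.8% of its exon bases are shared with FOXH1 on the opposite strand. KIF13B, which transports membrane proteins, had 13.7 and 12.8 CPM in FGF8+10 Pdgfra+ against 12.3 and 14.1 CPM in Mock Pdgfra+, and 13.9 and 14.6 CPM in FGF8+10 Pdgfralow against 25.0 and 24.1 CPM in Mock Pdgfralow. The Mock Pdgfralow pair stood apart and the other 6 libraries overlapped. KIF13B was called lower in Pdgfralow cells (-0.79 ± 0.09, adjusted p = 5.66e-11) and not in Pdgfra+ cells (0.00 ± 0.09, adjusted p = 0.984). KIFC3, a minus-end-directed motor found at cell junctions, had 32.3 and 30.8 CPM in FGF8+10 Pdgfra+ against 20.1 and 18.6 CPM in Mock Pdgfra+, and 44.1 and 44.7 CPM in FGF8+10 Pdgfralow against 23.6 and 21.0 CPM in Mock Pdgfralow. Its FGF8+10 libraries lay above all Mock libraries, at 0.71 ± 0.07 and 0.99 ± 0.07 (adjusted p = 3.19e-12 and 1.01e-17).

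Of the rest, KIF13A, an endosome motor, rose by 0.42 and 0.39, and KIF16B, which binds early endosomes, was not called (-0.13 and -0.02). KIF1C, which carries integrin-containing vesicles, fell by 0.21 on the log2 scale in Pdgfra+ cells (adjusted p = 6.98e-05) and rose by 0.13 in Pdgfralow cells (adjusted p = 0.0072). Under library totals its Pdgfra+ value was -0.04 with an adjusted p of 0.518. Without FGF8+10 Pdgfralow replicate 1 its Pdgfralow value was 0.11 (adjusted p = 0.0872), and without Mock Pdgfralow replicate 2 it was 0.09 (adjusted p = 0.139). Of 21 partners of the transport kinesins tested, from a list of 22 cargo adaptors and light chains, 6 rose and 9 fell in Pdgfra+ cells, where 25.8% of all genes rose and 25.1% fell. In Pdgfralow cells 4 rose and 11 fell, where 27.9% of all genes rose and 27.7% fell. The scaffold MAPK8IP2 moved by -1.39 and -2.25 and its relative MAPK8IP1 by -1.06 and -0.84. RAB11FIP5, an adaptor of recycling endosomes, was at -1.002 and -1.05. KTN1, the kinesin-binding protein kinectin, rose by 0.27 and 0.66. Of 23 genes of cytoplasmic dynein, the main motor of the opposite direction, and its activator dynactin, 10 rose and 4 fell in Pdgfra+ cells and 13 rose and 7 fell in Pdgfralow cells.

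KIF26A had the highest FPKM of the remaining class in all 4 groups, and with KIF26B it took 12.2% to 19.3% of kinesin FPKM. KIF26B was second of the class under FGF8+10, whereas in Mock cells KIF21A lay above it, at 10.5 against 10.1 FPKM in Mock Pdgfra+ and 10.7 against 7.25 FPKM in Mock Pdgfralow. KIF26A and KIF26B are atypical kinesins that bind microtubules without working as ATP-driven motors. KIF26A, known in mice as a brake on GDNF-RET signalling in enteric neurons, had 354 and 349 CPM in FGF8+10 Pdgfra+ against 208 and 201 CPM in Mock Pdgfra+, and 349.6 and 338 CPM in FGF8+10 Pdgfralow against 159 and 163 CPM in Mock Pdgfralow. The FGF8+10 groups overlapped each other and lay above both Mock groups, with fold changes of 0.78 ± 0.03 and 1.09 ± 0.03 (adjusted p = 2.18e-28 and 3.63e-34). KIF26B, needed in mice for the condensation of kidney mesenchyme and a target of WNT5A-ROR signalling, had 322 and 319.7 CPM in FGF8+10 Pdgfra+ against 147 and 143 CPM in Mock Pdgfra+, and 184 and 179 CPM in FGF8+10 Pdgfralow against 105 and 104 CPM in Mock Pdgfralow. All groups were separate, FGF8+10 Pdgfra+ was highest, and the fold changes were 1.15 ± 0.03 and 0.80 ± 0.03 (adjusted p = 9.29e-34 and 2.85e-27). WNT5A, the ligand of that pathway, moved by 1.40 and 1.22, and the planar polarity genes VANGL2 by 0.62 and 0.69 and PRICKLE2 by -0.87 and -0.70. Over the 10 pathway genes 5 rose and 3 fell in each population, with medians of 0.09 and 0.09. Of all genes, 50.9% and 55.7% were called in either direction.

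Of the kinesins of cilia, KIF24 and KIF9 rose in both populations and KIF7 was called in neither. KIF7, which sits at the cilium tip and regulates GLI proteins in Hedgehog signalling, was not called, at 0.06 ± 0.07 (adjusted p = 0.56) in Pdgfra+ cells and -0.16 ± 0.07 (adjusted p = 0.0541) in Pdgfralow cells. Of 8 Hedgehog genes, 3 rose and 3 fell in Pdgfra+ cells, and 3 rose and 5 fell in Pdgfralow cells, where 50.9% and 55.7% of all genes were called in either direction. The receptor and target PTCH1 was at -1.49 and -2.21, the target GLI1 at -2.56 and -2.21, and the ligand-binding target HHIP at 2.90 and 4.87. KIF24, which remodels centriolar microtubules and holds back cilium assembly, had 14.2 and 14.1 CPM in FGF8+10 Pdgfra+ against 10.2 and 9.52 CPM in Mock Pdgfra+, and 17.7 and 18.8 CPM in FGF8+10 Pdgfralow against 9.92 and 9.46 CPM in Mock Pdgfralow. Its treated and Mock libraries did not overlap (0.52 ± 0.10, adjusted p = 1.11e-05, and 0.91 ± 0.09, adjusted p = 1.66e-11). KIF9, a motor of motile cilia and flagella, had 3.40 and 3.52 CPM in FGF8+10 Pdgfra+ against 2.33 and 2.49 CPM in Mock Pdgfra+, and 4.58 and 4.36 CPM in FGF8+10 Pdgfralow against 2.63 and 2.38 CPM in Mock Pdgfralow. These libraries did not overlap between FGF8+10 and Mock. The log2 fold changes of KIF9 were 0.52 ± 0.19 (adjusted p = 0.0204) and 0.84 ± 0.19 (adjusted p = 0.00014), and 17.8% of the exon bases of KIF9 are shared with genes on the opposite strand. In Pdgfra+ cells the KIF9 call ended without FGF8+10 Pdgfra+ replicate 1 (0.56, adjusted p = 0.0503), without FGF8+10 Pdgfra+ replicate 2 (0.51, adjusted p = 0.0779) and without Mock Pdgfra+ replicate 1 (0.48, adjusted p = 0.103). KIF27, involved in motile cilia in mice, rose in Pdgfra+ cells (0.37) but was at 0.27 without FGF8+10 Pdgfra+ replicate 1 and at 0.27 without Mock Pdgfra+ replicate 2 (adjusted p = 0.149 in both). Motile cilia markers summed to 14.6 to 22.3 CPM over all libraries.

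Microtubule regulators and rare members complete the family. KIF21B, which limits microtubule growth in neurons and lymphocytes, had 7.83 and 8.61 CPM in FGF8+10 Pdgfra+ against 4.66 and 3.57 CPM in Mock Pdgfra+, and 15.7 and 15.9 CPM in FGF8+10 Pdgfralow against 11.8 and 11.5 CPM in Mock Pdgfralow. Pdgfralow libraries lay above Pdgfra+ libraries under each treatment, and KIF21B was higher with FGF8+10 by 1.00 ± 0.13 (adjusted p = 3.84e-09) and 0.44 ± 0.11 (adjusted p = 0.000472). Its relative KIF21A, mutated in congenital fibrosis of the extraocular muscles, was the 1 kinesin of this class that fell, at -0.65 ± 0.04 and -0.82 ± 0.04 (adjusted p = 9.4e-19 and 2.43e-22). KIF25, a minus-end-directed motor described at centrosomes, was rare, with 95 and 83 counts in FGF8+10 Pdgfra+ against 12 and 12 counts in Mock Pdgfra+, and 27 and 14 counts in FGF8+10 Pdgfralow against 10 and 17 counts in Mock Pdgfralow. In CPM KIF25 had 1.41 and 1.22 in FGF8+10 Pdgfra+ against 0.269 and 0.249 in Mock Pdgfra+, and 0.509 and 0.239 in FGF8+10 Pdgfralow against 0.164 and 0.281 in Mock Pdgfralow. The FGF8+10 Pdgfra+ pair stood apart from the rest, at 2.34 ± 0.48 (adjusted p = 5.1e-05), and Pdgfralow cells gave 0.73 ± 0.51 (adjusted p = 0.235). KIF2A, a depolymerase of spindle poles and neurites, rose by 0.15 and 0.49. Of its exon bases, 21.3% are shared with DIMT1 on the opposite strand or ENSG00000288643 on the same strand. KIF6 and KIF12 were not called.

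The second question was how the sorted populations differed. Under FGF8+10, 12 of 13 mitotic kinesins were lower in Pdgfra+ than in Pdgfralow cells and none was higher, with a median log2 fold change of -0.49. Under Mock, 3 mitotic kinesins were higher and 3 lower in Pdgfra+ cells, with a median of -0.13. Without Mock Pdgfralow replicate 2, KIFC1 (0.17, adjusted p = 0.0672) and KIF18B (0.14, adjusted p = 0.234) of the 3 higher and KIF20B (-0.12, adjusted p = 0.158) of the 3 lower lost their calls. KIF18B also lost its call without Mock Pdgfra+ replicate 1 (0.17, adjusted p = 0.128). Transport kinesins gave 3 higher and 5 lower of 15 under FGF8+10, and 2 higher and 3 lower under Mock. KIF17, among the 3 higher under FGF8+10 (0.84), lost its call without FGF8+10 Pdgfralow replicate 1 (0.62). The 2 higher under Mock were KIF1A and KIF16B, named after their values were seen. Both lost their calls under DESeq2 (0.24, adjusted p = 0.0865, and 0.22, adjusted p = 0.0838) and without Mock Pdgfra+ replicate 1, Mock Pdgfralow replicate 1 or Mock Pdgfralow replicate 2 (adjusted p from 0.0505 to 0.278). KIF16B also lost it with scaling by library totals, with no filter on low counts, and without either FGF8+10 Pdgfra+ library or Mock Pdgfra+ replicate 2 (adjusted p from 0.0553 to 0.121). Of the 3 lower, KIFC3 lost its call under limma-voom (-0.20, adjusted p = 0.0544), without Mock Pdgfra+ replicate 2 (-0.15, adjusted p = 0.242) and without Mock Pdgfralow replicate 1 (-0.12, adjusted p = 0.363). Over all kinesins there were 6 higher and 20 lower under FGF8+10, where 19.6% of all genes were called higher and 21.7% lower (41.4% in either direction). KIF21A, among the 6 higher (0.13), lost its call under DESeq2 (0.11, adjusted p = 0.0584). It also lost its call without FGF8+10 Pdgfra+ replicate 1 (0.08) and without FGF8+10 Pdgfralow replicate 2 (0.09). Under Mock there were 7 higher and 8 lower, where 12.4% of all genes were higher and 13.4% lower (25.8%). The count of 7 was 4 without Mock Pdgfra+ replicate 1 and 3 without Mock Pdgfralow replicate 2.

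Under FGF8+10, KIF4A, which organises the central spindle, gave the largest called mitotic value, at -0.88 ± 0.05 (adjusted p = 4.95e-20), and KIF20A was at -0.77 ± 0.04 (adjusted p = 2.69e-22). Under Mock the same genes gave -0.47 ± 0.06 (adjusted p = 3.4e-09) and -0.35 ± 0.04 (adjusted p = 3.72e-09). KIF14 was lower in Pdgfra+ cells under FGF8+10 (-0.54 ± 0.05, adjusted p = 4.85e-12) and higher in them under Mock (0.24 ± 0.06, adjusted p = 0.00295). KIF5B was lower in Pdgfra+ cells under both treatments, at -0.59 ± 0.02 and -0.15 ± 0.02 (adjusted p = 1.79e-25 and 1.51e-06). KIF26B was higher in Pdgfra+ cells under both, at 0.82 ± 0.03 and 0.47 ± 0.03 (adjusted p = 7.38e-28 and 1.35e-17). Other large values were KIF25 under FGF8+10 (1.82 ± 0.45, adjusted p = 0.00076), KIF1A under FGF8+10 (-1.54 ± 0.13, adjusted p = 2.31e-14), KIF21B under FGF8+10 (-0.94 ± 0.11, adjusted p = 6.8e-10) and under Mock (-1.51 ± 0.13, adjusted p = 1.13e-13) and KIF13B under Mock (-0.89 ± 0.09, adjusted p = 1.73e-11). Of the mitotic partner genes, 1 was higher and 17 lower in Pdgfra+ cells under FGF8+10, and 1 was higher and 10 lower under Mock. Of the G1/S genes, 13 of 15 were lower under FGF8+10 and 12 under Mock. Among all genes tested, 19.6% were higher and 21.7% lower under FGF8+10, and 12.4% were higher and 13.4% lower under Mock. Of 6 epithelial markers, 3 were lower in Pdgfra+ cells under each treatment and none was higher. They summed to 471 to 475 CPM in FGF8+10 Pdgfra+ against 1290 to 1300 CPM in FGF8+10 Pdgfralow, and to 666 to 667 CPM in Mock Pdgfra+ against 1130 CPM in Mock Pdgfralow. CDH1 averaged at most 1.20 CPM, and the part of such cells in the kinesin values was not tested.

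**Figure D4:**
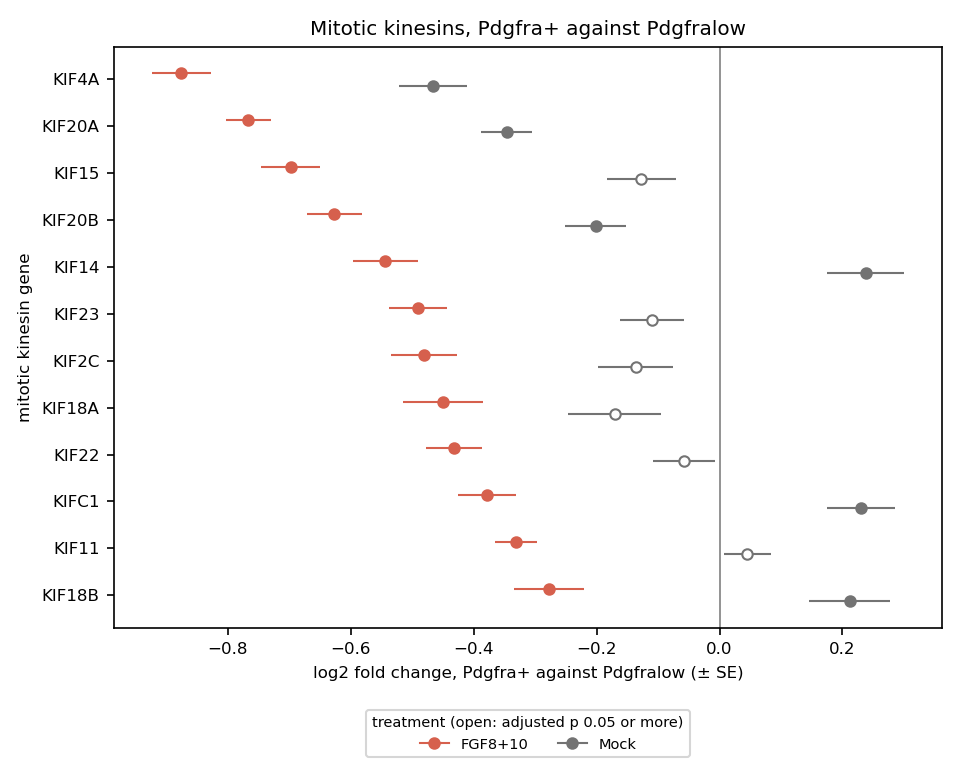
Log2 fold change of Pdgfra+ over Pdgfralow cells with its standard error for 12 mitotic kinesins, under FGF8+10 (red) and Mock (grey), with open points for an adjusted p of 0.05 or more. Every FGF8+10 point lies below 0 and left of its Mock point.

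The difference of the FGF8+10 effects between the populations was tested as an interaction, the effect in Pdgfra+ cells minus that in Pdgfralow cells. It was called for 27 kinesins, 7 positive and 20 negative, where 12% of all genes were positive, 14% negative and 26% called in either direction. Without Mock Pdgfra+ replicate 2 the positive count was 4. The 12 mitotic kinesins other than KIF4B were called negative, a larger rise in Pdgfralow cells, with a class median of -0.41. The call of KIF18A ended under DESeq2 (-0.28, adjusted p = 0.0631), with no filter on low counts (-0.26, adjusted p = 0.0642) and in 6 of the 8 fits without 1 library (adjusted p from 0.061 to 0.21). The clearest by adjusted p were KIF5B (-0.44 ± 0.03, adjusted p = 7.54e-15), KIF1A (-1.79 ± 0.15, adjusted p = 3.47e-13), KIF14 (-0.78 ± 0.08, adjusted p = 1.32e-10), KIF26B (0.35 ± 0.04, adjusted p = 1.75e-09) and KIF26A (-0.31 ± 0.04, adjusted p = 3.81e-09). Of the transport class, 4 were positive and 5 negative. Because the 4 treatment and population comparisons share libraries, like values in them are not independent.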

How the data were processed

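The deposited values were unnormalised read counts by gene name, in 1 table that covers all 8 libraries. FastQC 0.11.8, HISAT2 2.1.0 and the GRCh38 build are named in the submitters' processing notes. Per the file headers, featureCounts 2.0.3 counted reads by gene name on GENCODE release 42, without strand, counting both mates of a pair, and leaving out reads that overlapped more than 1 gene or mapped to several places. Software used here was R 4.3.3 with edgeR 4.0.16, limma 3.58.1 and, as an alternative, DESeq2 1.42.0. After filterByExpr, 22554 genes were scaled by TMM (factors 1.055 to 1.065 under FGF8+10 and 0.936 to 0.952 under Mock) and fitted with 1 mean per group by the robust quasi-likelihood method, which left 4 residual degrees of freedom. The 5 two-sided contrasts were each adjusted by Benjamini-Hochberg over all genes, and the SE is the log2 fold change divided by the square root of F. FPKM were computed from TMM-scaled CPM and the table's gene length, a union of all exons. The table had 0 unused sample columns and 0 lines without a gene name.

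The common biological coefficient of variation was 4.06%. Replicates correlated at 0.9964 to 0.9976 across genes in log2 CPM and had a chi-square per gene of 3.38 to 3.66, so none repeated another. Members printed in full were the 7 named by the selection rule, the 3 called members per class with the largest change in each treatment contrast and at least 1 CPM in a group, the 3 largest called in each population contrast under the same minimum, and the 5 lowest adjusted p of the difference of effects. The members and lists were chosen with earlier results of these data known. The fit was tested on simulated data. Other scalings and tests, no filter, a replicate block, 2-group fits and leaving out each library were tried.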

Additional observations from a re-analysis of the deposited data

Results flagged for a closer look

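In 27 kinesins the FGF8+10 effect differed between Pdgfra+ and Pdgfralow cells, by the interaction in edgeR's quasi-likelihood test at an adjusted p under 0.05. Values are log2 effects in Pdgfra+ cells minus those in Pdgfralow cells. The mitotic kinesins were KIF14 (-0.78), KIFC1 (-0.61), KIF15 (-0.57), KIF20A (-0.42), KIF11 (-0.38), KIF20B (-0.43), KIF18B (-0.49), KIF4A (-0.41), KIF22 (-0.37), KIF23 (-0.38), KIF2C (-0.34) and KIF18A (-0.28). Each of these rose in both populations, and by more in Pdgfralow cells. Negative values in the transport class were KIF5B (-0.44), KIF1A (-1.79), KIF1C (-0.34), KIF1B (-0.19) and KIFC3 (-0.29), and positive ones KIF13B (0.79), KIFC2 (0.48), KIF17 (1.19) and KIF5C (0.47). In the remaining class the negative values were KIF26A (-0.31), KIF2A (-0.34) and KIF24 (-0.39), and the positive ones KIF26B (0.35), KIF21B (0.56) and KIF21A (0.16). KIF5B, KIF1B, KIFC3, KIF2A, KIF24 and KIF26A rose more in Pdgfralow cells, KIF1A fell more in Pdgfra+ cells, and KIFC2, KIF13B and KIF21A had the lower value in Pdgfralow cells. KIF26B and KIF21B rose more in Pdgfra+ cells, and KIF17 and KIF5C were called higher in Pdgfra+ cells and not called in Pdgfralow cells. KIF1C was called with opposite signs in the 2 populations, but both values were small and depended on the processing. Its Pdgfra+ value was -0.04 and not called under library totals. Its Pdgfralow value was 0.11 without FGF8+10 Pdgfralow replicate 1 and 0.09 without Mock Pdgfralow replicate 2.

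Some of the interaction calls ended when 1 library was left out. Without FGF8+10 Pdgfra+ replicate 1, those were KIF24 at -0.38, KIF18A at -0.24 and KIF21A at 0.13 (adjusted p from 0.082 to 0.152). Without FGF8+10 Pdgfra+ replicate 2, those were KIF5C at 0.43, KIF24 at -0.37, KIF18A at -0.29 and KIFC3 at -0.24 (adjusted p from 0.0667 to 0.128). Without FGF8+10 Pdgfralow replicate 1, those were KIF5C at 0.27, KIF18A at -0.29 and KIFC3 at -0.28 (adjusted p from 0.0571 to 0.337). Without FGF8+10 Pdgfralow replicate 2, those were KIF24 at -0.33, KIF18A at -0.24, KIF21A at 0.14 and KIFC3 at -0.26 (adjusted p from 0.0851 to 0.149). Without Mock Pdgfra+ replicate 1, those were KIF5C at 0.50, KIF24 at -0.33 and KIFC3 at -0.22 (adjusted p from 0.0509 to 0.134). Without Mock Pdgfra+ replicate 2, those were KIF21B at 0.39, KIF5C at 0.44, KIF18A at -0.23 and KIF21A at 0.14 (adjusted p from 0.101 to 0.149). Without Mock Pdgfralow replicate 1, those were KIF5C at 0.46 and KIF21A at 0.15 (adjusted p from 0.0847 to 0.106). Without Mock Pdgfralow replicate 2, those were KIF5C at 0.49, KIF24 at -0.35, KIF18A at -0.20 and KIFC3 at -0.20 (adjusted p from 0.0781 to 0.21). Under DESeq2 the calls of KIF5C (0.47, adjusted p = 0.107), KIF21A (0.16, adjusted p = 0.0694) and KIF18A (-0.28, adjusted p = 0.0631) ended, and with no filter on low counts those of KIF24 (-0.36, adjusted p = 0.0547) and KIF18A (-0.26, adjusted p = 0.0642). KIF5C kept its call at 0.74 without FGF8+10 Pdgfralow replicate 2 (adjusted p = 0.00183). KIF2C kept its call at -0.23 without Mock Pdgfralow replicate 1 (adjusted p = 0.0395). With 2 libraries per group, no sample could be set against the others of its group.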

How the results depend on the processing

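Over 128 called kinesin values in the 5 comparisons, 0 reversed under any alternative. The alternatives other than leaving out a library gave 869 values, of which 857 kept their call and 12 lost it, and leaving out each library gave 1024, of which 968 kept it and 56 lost it. In all, 108 of the 128 calls held under every alternative. Without 1 library, the kinesins called higher and lower ranged from 26 to 29 and 4 to 4 (FGF8+10 against Mock, Pdgfra+), 23 to 24 and 4 to 5 (Pdgfralow), 5 to 6 and 20 to 20 (Pdgfra+ against Pdgfralow, FGF8+10), 3 to 7 and 7 to 9 (Mock), and 4 to 7 and 17 to 20 (difference of effects). Library totals moved the log2 ratio of the mitotic sum to 1.14 in Pdgfra+ cells and 1.57 in Pdgfralow cells and of the transport sum to 0.49 and 0.76, while the median of all genes moved to 0.16 and 0.15. Sums of CPM in place of FPKM gave 0.94 and 1.38 (mitotic) and 0.27 and 0.53 (transport). Leaving out KIF5B gave 0.12 and 0.16 for transport. Leaving out single libraries, added after the data were seen, moved the mitotic ratios over 0.96 to 0.97 and 1.40 to 1.41 and the transport ratios over 0.30 to 0.33 and 0.59 to 0.61.

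Replicate numbers did not pair the samples: same-numbered libraries had correlations of deviations from -0.0123 to 0.0297 over 15131 genes. With the replicate number as a block the counts were 28 higher and 4 lower, 24 and 4, 6 and 20, 7 and 8, and 7 and 20, the same counts as without it. With 2 libraries per group, the small or low-count differences of KIF3A, KIF1C, KIF9 and KIF27 each lost a call in at least 1 fit without a library.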

Other observations

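The tested genes outside the family whose levels over the 8 libraries were most like KIF11, by Pearson's r of log2 CPM, were TMC7 (0.9991), RGS18 (0.9989), MGAT5 (0.9988), ENSG00000286134 (0.9988) and ITGAV (0.9986). For KIF26B they were APCDD1 (0.9991), NOTCH3 (0.996), RGL2 (0.9958), WBP1L (0.9957) and ZNF117 (0.9954). Within the family, KIF14 (0.993), KIFC1 (0.992) and KIF18B (0.991) were closest to KIF11, while KIF21A (-0.991) and KIFC2 (-0.943) ran opposite to it. The 8 libraries form 4 groups, so these values describe the group means more than independent samples, and they carry no test.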
